A study of Mus musculus with 18 samples.

Results

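The comparison set regulatory T (Treg) cells of mouse peripheral blood against Treg cells of liver, among the genes that liver Treg cells express. A gene entered when the mean of the 3 liver libraries was at least 10 TPM, a unit that gives each transcript's share of the library's RNA after correction for its length. Of the 55487 gene IDs measured, 8256 met this rule, and 16694 passed the lower filter of the test, which asked any 1 of the 6 groups for a mean of 1 TPM or more. Only liver values chose the genes, so that genes found mainly in other blood cells would weigh less. Because the same liver values stand on one side of the comparison, counts and medians over these genes are given as a description. A second comparison, of blood with 4 other organs, used no liver library.

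Both groups held freshly sorted CD4+Foxp3+ Treg cells from wild-type mice that received no treatment, with 3 libraries each. The other 4 groups of the series, spleen, lymph node, lung and bone marrow, had the same genotype and treatment and also 3 libraries each. The labels give neither the sorting gates, the way cells were released from each organ, the age or sex of the mice, nor the number of animals behind a library. They also do not say whether replicates came from separate sorts, so p-values measure the spread between these libraries, which may be technical.

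Treg cells restrain other immune cells and depend on the transcription factor Foxp3. Resting Treg cells circulate and carry lymph node homing molecules such as the chemokine receptor CCR7. Effector Treg cells in organs are known for checkpoint receptors such as PD-1 and TIGIT, for the chemokine receptor CCR8, and for secreted factors such as interleukin 10 and amphiregulin.

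The label was checked against defining genes. Foxp3 was at 85.4, 88.4 and 92.2 TPM in the blood libraries and at 165, 148 and 134 TPM in the liver libraries. All 7 Treg marker genes checked reached the 10 TPM rule, and their summed level was 897 to 915 TPM in blood and 2599 to 2704 TPM in liver. Summed over 20 general T cell genes (the T cell receptor and CD3 chains, Cd2, Lck and others), blood held 3661 to 3806 TPM and liver 7281 to 7860 TPM. The T cell share of the RNA was thus lower in all 3 blood libraries, and fewer T cells and less T cell RNA per cell cannot be told apart in bulk RNA.

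Every comparison is therefore given on TPM and, where it matters, also after dividing each library by its summed T cell genes. This scaling moved the median log2 difference of all genes tested (blood minus liver) from 0.07 to 0.93, and that of the liver-expressed genes from -0.07 to 0.91. A gene at 0.9 after scaling was therefore near the middle of all genes.

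The rule did not remove the RNA of other blood cells. Of 10 neutrophil genes, 6 passed the 10 TPM rule, and the summed level of the 10 was 18104 to 19225 TPM in blood against 148 to 343 TPM in liver. Of 10 monocyte genes 4 passed, with sums of 9042 to 9240 TPM in blood and 190 to 210.2 TPM in liver. B cell genes (4 of 7 passed) summed to 616 to 638 TPM in blood and 51.3 to 116 TPM in liver. No platelet gene of 7 and no Kupffer cell or macrophage gene of 10 passed. Among dendritic genes, only the antigen presentation genes Cd74, H2-Aa and H2-Ab1 passed.

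RNA of other cells was also present on the liver side. Erythroid genes (5 of 7 passed) summed to 10932 to 11969 TPM in liver and 2826 to 2992 TPM in blood. Of 8 liver endothelium and stellate genes 3 passed, with sums of 126 to 155 TPM in liver and 103 to 109 TPM in blood, most of it from Pecam1, which was not called (103 TPM in blood and 96.5 in liver). The other 2, Stab2 and Clec4g, genes of the liver sinusoidal endothelium, were at 14.3 ± 9.67 and 20.1 ± 4.67 TPM in liver (SD, n = 3), and at 0.03 ± 0.017 and 1.09 ± 0.80 TPM in blood. Hepatocyte genes summed to 147 to 169.5 TPM in blood and 30.2 to 39.4 TPM in liver. Most of that sum was Trf, encoding transferrin, the only 1 of 10 to pass, at 159 TPM in blood and 16.4 TPM in liver (difference 3.21). Alb was at 1.74 TPM in blood and 5.39 TPM in liver, and 4 of the 10 were at 0 in all 3 liver libraries. What part these cells had in the differences below was not tested.

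**Figure D1:**
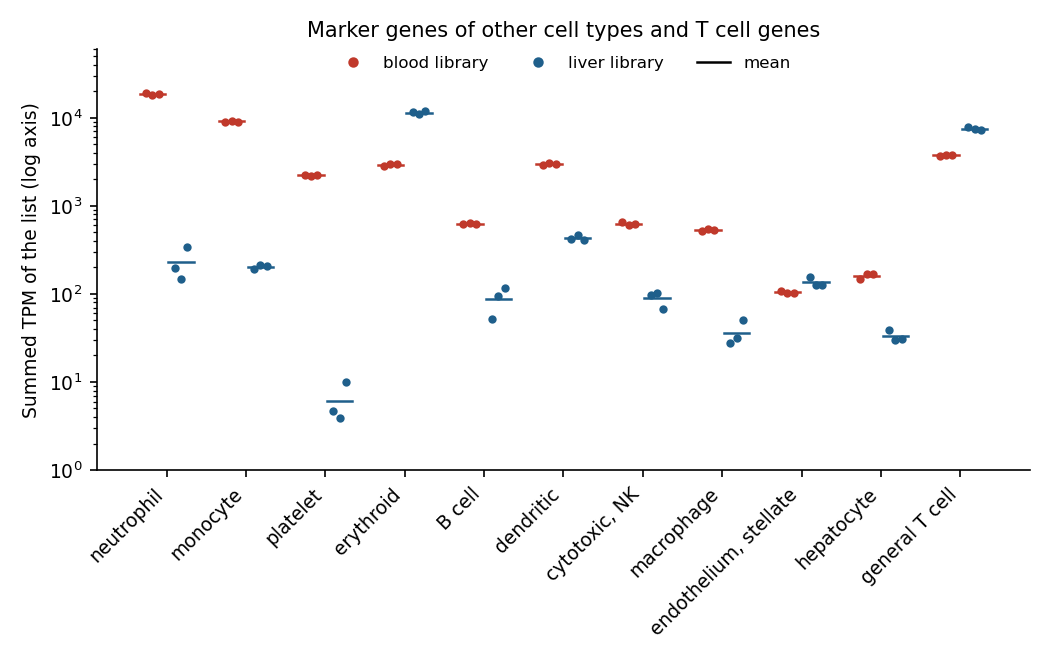
Summed TPM of marker genes of other cell types and of 20 general T cell genes, on a log axis. Dots are the 3 blood (red) and 3 liver (blue) libraries and bars are means. Neutrophil, monocyte, platelet, B cell, dendritic, cytotoxic, macrophage and hepatocyte sums were higher in every blood library. Erythroid, endothelium and stellate, and T cell sums were higher in every liver library.

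Depth differed between the groups. As estimated from the steps between low TPM values, a level of 10 TPM corresponded to 26.1 reads per kb of transcript in liver and 121.8 in blood, so the blood libraries were 4.67 times as deep. The median coefficient of variation of the liver-expressed genes was 19.23% among the liver and 6.92% among the blood libraries.

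Among the 8256 genes, 1553 (18.8%) were higher and 2074 (25.1%) lower in blood than in liver (limma, Benjamini-Hochberg adjusted p under 0.05 over all genes tested). Over all 16694 genes tested, 23.3% were called higher and 16.1% lower. Choosing genes by their liver level removes genes that are low in liver, and nothing is read from the difference between these shares. When genes were instead chosen on the mean of blood and liver, the split turned to 2221 higher and 1929 lower. When they were chosen on 1 liver library and tested with that library left out, 1643 to 1686 were higher and 2017 to 2052 lower.

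The large differences lay on both sides. At least 3 log2 units separated blood from liver for 61 genes lower in blood (0.739% of the set, 0.389% of all genes tested) and for 51 genes higher in blood (0.618% of the set, 3.47% of all genes tested). The 3 blood libraries were all below the 3 liver libraries for 2312 genes (28.0%, against 18.2% of all genes tested), and all above for 1751 (21.2%, against 27.3%). With scaling to T cell genes the calls became 6399 higher and 388 lower (77.5% and 4.7%, against 64.1% and 4.28% of all genes tested). The list counts below stand beside these scaled shares and, on TPM, beside 23.3% higher and 16.1% lower of all genes tested. A set of 387 genes was lower in blood on both scales (4.69%, against 4.37% of the genes tested on both scales). All 1553 genes higher on TPM were also higher after scaling (18.8%, against 23.5% of the genes tested on both scales). That follows from the construction of the scale, which raises blood relative to liver.

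Against the mean of spleen, lymph node, lung and bone marrow, which uses no liver value, 1412 of the 8256 genes (17.1%) were higher and 2464 (29.8%) lower in blood. Of all genes tested, 19.0% were higher and 19.2% lower. With median ratio scaling this split was 1845 higher and 1790 lower, so the excess of lower genes depended on the scale. After T cell scaling it was 6722 higher and 198 lower (81.4% and 2.4%, against 64.2% and 3.40% of all genes tested). This comparison shares the blood libraries with the first, and the values of both are given side by side for named genes.

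**Figure D2:**
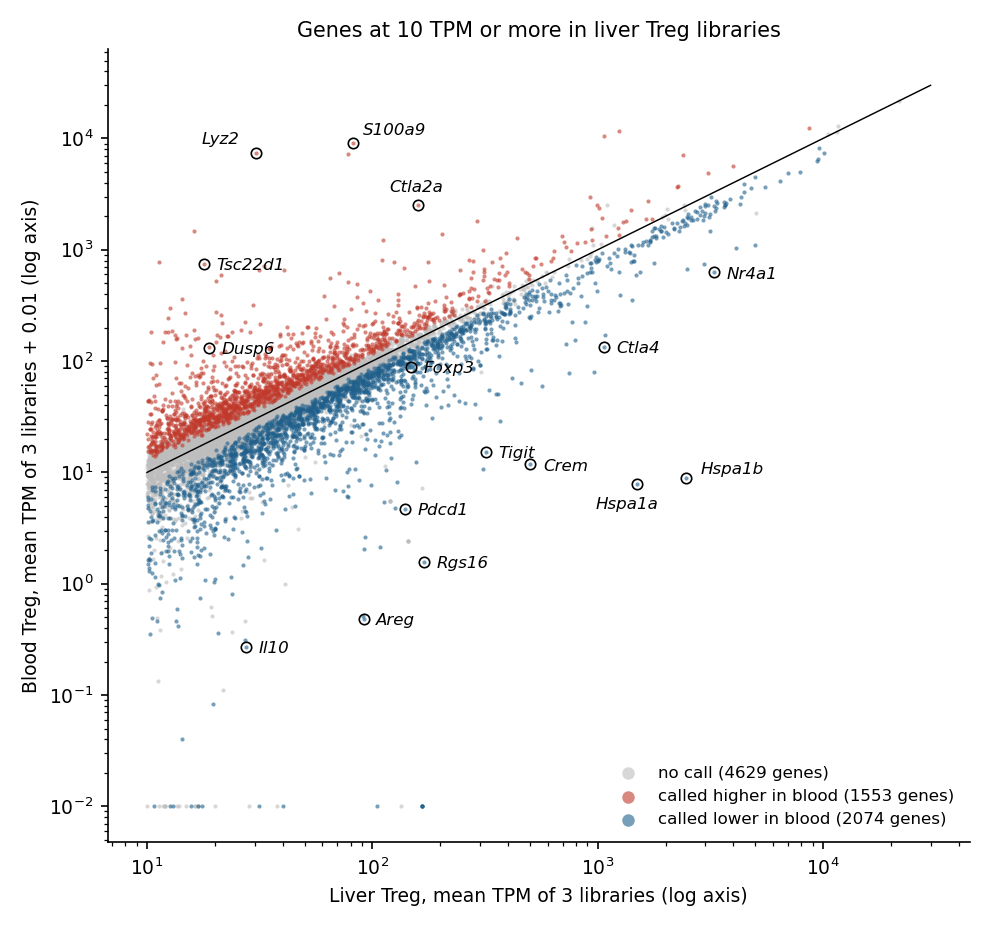
Mean TPM in blood (vertical, 0.01 added) against mean TPM in liver (horizontal) for the 8256 genes with a liver mean of at least 10 TPM, on log axes; the line marks equal levels and circles mark named genes. Hspa1a and Hspa1b lie far below the line, Lyz2 and S100a9 far above it, and grey genes passed no call.

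The 2 genes furthest below their liver level encode inducible HSP70, the chaperone made when proteins unfold. Hspa1b was at 8.15, 9.03 and 9.25 TPM in blood and at 2223, 2445 and 2743 TPM in liver. Hspa1a was at 7.22, 6.75 and 9.46 TPM in blood and at 1397, 1449 and 1640 TPM in liver. No blood library came near any liver library, and the differences were -7.97 ± 0.08 (SE) and -7.42 ± 0.14 log2 units (limma adjusted p = 3.8e-18 and 2.8e-15). The liver was far above the other organs as well: Hspa1b was at 39.2 TPM in spleen, 10.8 in lymph node, 199 in lung and 315 in bone marrow. Blood Hspa1b was close to the lymph node level and still below the mean of the 4 organs by 2.92 log2 units (adjusted p = 3.9e-14 with limma). These genes are near-identical copies whose reads can be split between them, so their separate levels are uncertain.

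Their promoters show how alike the copies are, and where a heat shock element, the binding motif of heat shock factors, lies. The 250 bases before the transcription start were taken from RefSeq sequences of GRCm38.p6, and the motif searched was GAANNTTC or TTCNNGAA, each of which reads the same on both strands and which may overlap each other. Matches are in capitals. The first pair below differs at 3 of the 250 positions (C44T, T47C and T249G from Hspa1a to Hspa1b, counted from the first base printed). Hspa1a lies at chr17:34972157-34972406, minus strand, and Hspa1b at chr17:34959239-34959488, minus strand. Hsph1 (chr5:149636337-149636586, minus strand) and Hspe1 (chr1:55087898-55088147, plus strand) are shown as members of the list with 1 and 3 matches, the 3 in Hspe1 overlapping.
Hspa1a: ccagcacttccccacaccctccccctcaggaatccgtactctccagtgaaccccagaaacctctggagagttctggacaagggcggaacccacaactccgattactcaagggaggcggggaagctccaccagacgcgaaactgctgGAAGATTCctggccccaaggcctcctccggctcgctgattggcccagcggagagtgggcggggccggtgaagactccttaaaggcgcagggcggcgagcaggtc
Hspa1b: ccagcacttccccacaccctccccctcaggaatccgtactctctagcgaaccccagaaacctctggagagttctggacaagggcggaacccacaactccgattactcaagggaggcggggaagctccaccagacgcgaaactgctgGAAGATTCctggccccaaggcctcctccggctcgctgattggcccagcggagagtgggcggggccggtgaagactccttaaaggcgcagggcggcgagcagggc
Hsph1: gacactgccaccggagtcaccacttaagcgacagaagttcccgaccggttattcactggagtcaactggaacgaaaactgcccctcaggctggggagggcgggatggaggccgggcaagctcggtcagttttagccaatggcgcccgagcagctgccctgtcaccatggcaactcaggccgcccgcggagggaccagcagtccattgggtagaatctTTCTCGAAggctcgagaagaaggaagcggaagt
Hspe1: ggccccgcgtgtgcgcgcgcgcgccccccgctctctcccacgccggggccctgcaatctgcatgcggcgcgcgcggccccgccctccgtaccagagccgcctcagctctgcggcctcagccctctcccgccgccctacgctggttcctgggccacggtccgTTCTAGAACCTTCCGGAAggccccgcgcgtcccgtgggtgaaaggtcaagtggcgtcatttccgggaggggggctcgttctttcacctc
The single match in the 2 HSP70 promoters begins 104 bases before the start, that of Hsph1 33 bases before it, and the first of Hspe1 89 bases before it. In the heat shock and chaperone list, 10 of the 20 genes with a promoter sequence held a match, compared with 14.5% of all 27025 genes with a promoter and 12.2% of 6332 liver-expressed genes. A match is a description of the sequence only.

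Of the 24 heat shock and chaperone genes, all liver-expressed, 18 were lower in blood and none higher, with a median of -0.75 log2 units beside 0.07 over all genes tested. Hsph1, an HSP110 nucleotide exchange factor, was at 92.6, 75.9 and 79.4 TPM in blood and at 532, 505 and 488 TPM in liver. Dnajb1, the HSP40 partner of HSP70, was at 39.8, 41.8 and 43.4 TPM in blood and at 270, 242 and 265 TPM in liver. The differences were -2.61 ± 0.07 and -2.61 ± 0.08 log2 units (SE), with no overlap of libraries. Hsp90aa1, the inducible HSP90, was at 356 ± 22.8 TPM in blood and 1427 ± 164 TPM in liver (SD, n = 3).

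The smaller differences of the list depended on the scale. Hspe1, the mitochondrial co-chaperone, was at 127, 127 and 131 TPM in blood and 245, 422 and 291 TPM in liver, a difference of -1.27 log2 units that became -0.27 after T cell scaling (limma adjusted p = 0.12). After that scaling 9 of the 24 genes were lower and 13 higher, with a median of 0.25 beside 0.93 for all genes. Hspa1a and Hspa1b stayed at -6.49 and -7.04. Against the 4 other organs 18 of the 24 were lower and 1 higher, with a median of -0.46, and Hsph1 and Dnajb1 differed by -0.51 and -0.52.

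Genes of tissue-resident T cells had the lowest median of the 18 lists, marker lists of other cell types aside. The lists were chosen with earlier results of these data known, and the rule keeps genes expressed in liver, so the rank is a description. Of 24 genes, 21 were liver-expressed, and 19 of these were lower and 2 higher in blood, with a median of -2.63 log2 units. Rgs16, which damps G protein signals downstream of chemokine receptors, was at 1.34, 1.59 and 1.76 TPM in blood and at 180, 158 and 170 TPM in liver (difference -6.05 ± 0.11, limma adjusted p = 1.7e-15). Its levels in spleen, lymph node, lung and bone marrow were 22.2, 22.5, 39.3 and 23.8 TPM, so liver was the highest of the 6 sites and blood the lowest.

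Crem, a repressor of cyclic AMP responsive genes, was at 6.87, 15.5 and 13 TPM in blood and at 476, 529 and 504 TPM in liver. The orphan nuclear receptor Nr4a3 was at 2.10, 2.28 and 1.98 TPM in blood and at 105, 116 and 103 TPM in liver. Ramp3, an accessory chain of the calcitonin receptor-like receptor, was at 3.05, 2.94 and 1.86 TPM in blood and at 87.0, 97.7 and 94.3 TPM in liver. In each of these the liver values were matched or passed only in lung, where Crem was at 1337 TPM, Nr4a3 at 142 TPM and Ramp3 at 782 TPM. Differences between lung and liver were not tested.

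Tnfaip3 encodes A20, a brake on NF-kappaB signalling. It was at 76.9, 80.1 and 82.5 TPM in blood and at 1029, 914 and 940 TPM in liver (difference -3.57 ± 0.05, limma adjusted p = 3.2e-16). Bhlhe40, a transcription factor of activated T cells, was at 25.1, 31.6 and 30.5 TPM in blood and at 370, 390 and 342 TPM in liver. Cxcr6, a receptor for the ligand CXCL16, was at 10.3, 10.3 and 11 TPM in blood and at 110, 129 and 107 TPM in liver. Blood lay about an order of magnitude below liver in all 3, with no overlap. Dusp6, a phosphatase of ERK, went the other way, at 130, 138 and 129 TPM in blood and 20.5, 17.3 and 18.6 TPM in liver, and Itga4 was higher by 0.27 log2 units.

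After T cell scaling the residency list kept 16 lower and 3 higher genes, with a median of -1.64. Against the 4 other organs 14 were lower and 4 higher (median -1.2).

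Effector and tissue Treg genes were lower in blood as a group. Of 30 genes, 26 were liver-expressed, and 21 of these were lower and 4 higher, with a median of -2.09 log2 units on TPM and -1.13 after T cell scaling, where 17 were lower and 6 higher. Areg, which encodes the repair factor amphiregulin, was at 0.40, 0.57 and 0.45 TPM in blood and at 86.8, 103 and 85.2 TPM in liver. Ccr8, a chemokine receptor of activated Treg cells, was at 0.33, 0.34 and 0.85 TPM in blood and at 85.4, 79.8 and 109 TPM in liver. Il10, encoding the suppressive cytokine interleukin 10, was at 0.07, 0.30 and 0.41 TPM in blood and at 27.9, 29.7 and 25 TPM in liver. All 3 were below 1 TPM in every blood library, and the log2(TPM + 1) differences of -5.97, -5.94 and -4.51 understate their ratios.

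**Figure D3:**
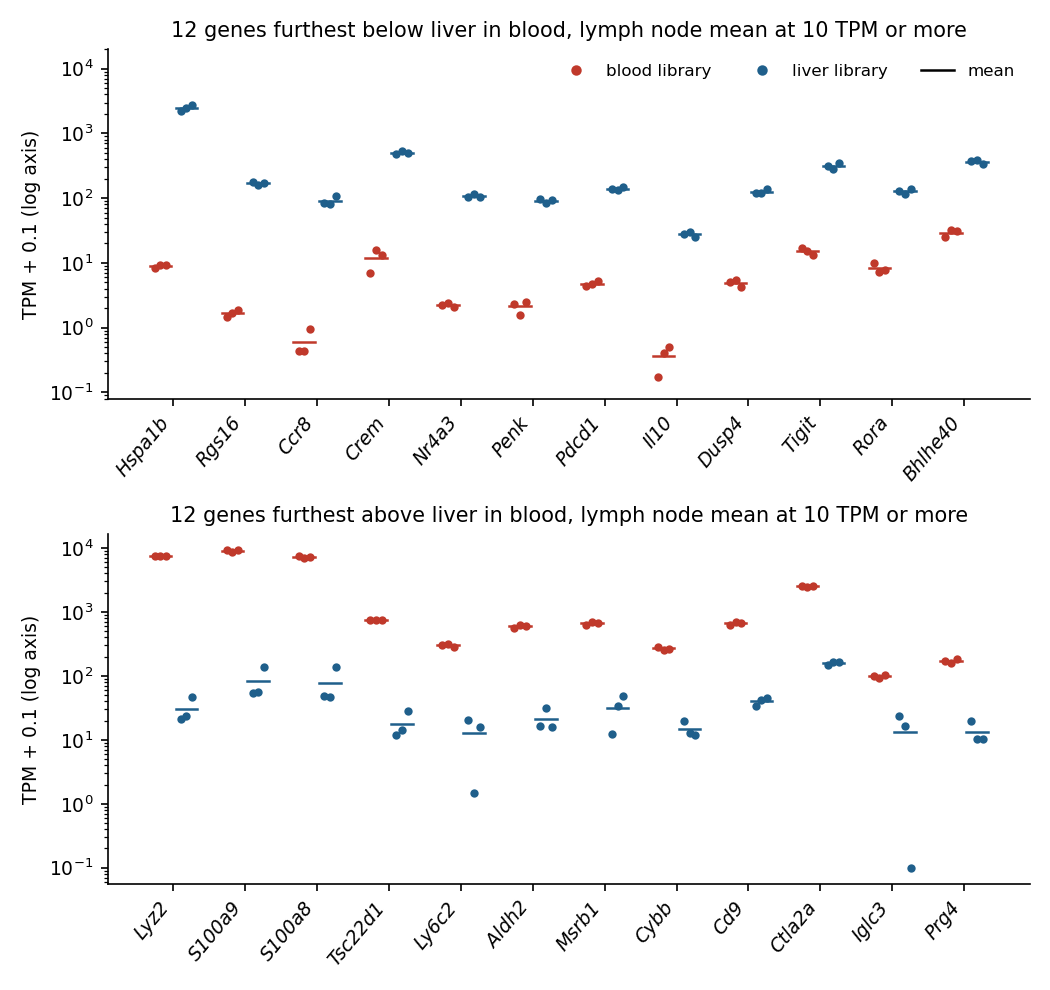
TPM plus 0.1 on a log axis for the 12 liver-expressed genes furthest below (top) and furthest above (bottom) liver in blood that also had a lymph node mean of at least 10 TPM. Dots are libraries and bars are means; no blood library overlapped a liver library, and the liver dots of Ly6c2 and Iglc3 were widely spread.

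The inhibitory receptor genes Pdcd1 and Tigit were lower in blood. Pdcd1, encoding PD-1, was at 4.29, 4.64 and 5.06 TPM in blood and at 137, 134 and 148 TPM in liver. Tigit was at 17.0, 15.4 and 13.3 TPM in blood and at 318, 287 and 349 TPM in liver. The differences were -4.63 ± 0.07 and -4.30 ± 0.10 log2 units (SE), and those against the 4 other organs, -4.04 and -3.56, were nearly as large. Blood held the lowest mean of the 6 sites for each.

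Penk, the precursor of enkephalin peptides, was at 2.25, 1.48 and 2.40 TPM in blood and at 96.2, 84.9 and 94.0 TPM in liver, and spleen (104 TPM) was as high as liver. Dusp4, a nuclear MAP kinase phosphatase, was at 4.94, 5.37 and 4.09 TPM in blood and 121, 119 and 140 TPM in liver. Rora, a nuclear receptor of innate-like and tissue lymphocytes, was at 10, 7.02 and 7.73 TPM in blood and 128, 117 and 139 TPM in liver. These 3 genes separated blood from liver without overlap, with differences of -4.94, -4.46 and -3.81 log2 units.

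Il1rl1 encodes ST2, the receptor for the alarmin interleukin 33. It was at 11.5, 12.5 and 13.4 TPM in blood and at 152, 180 and 136 TPM in liver. Icos, a costimulatory receptor, was at 32.1, 28.1 and 31.8 TPM in blood and at 299, 314 and 291 TPM in liver. Gata3 (29.5 against 118 TPM) and Maf (20.7 against 132 TPM), transcription factors of effector Treg cells, were also lower in blood, by differences of -1.97 and -2.62.

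Members of the list that were higher in blood included Cd44, an adhesion receptor, at 281, 258 and 267 TPM in blood and 113, 94.2 and 101 TPM in liver. Fgl2, a secreted fibrinogen-like protein, was at 221, 212 and 221 TPM in blood and 63.1, 73.2 and 86.1 TPM in liver. Monocytes and neutrophils can express both genes as well, and their marker sums above moved the same way; their part was not tested.

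The Treg core list was mostly lower on TPM, and evenly split after scaling, where most genes tested were higher. Of 18 genes, all liver-expressed, 15 were lower and 2 higher in blood (median -0.96, beside 0.07 over all genes tested). After T cell scaling 7 were lower and 7 higher (median 0.04, beside 0.93). On that scale 4.28% of all genes tested were lower and 64.1% higher. Ctla4, a receptor that strips costimulatory ligands from antigen-presenting cells, was at 141, 132 and 128 TPM in blood and at 987, 1125 and 1082 TPM in liver. Its difference was -2.98 ± 0.06 log2 units on TPM (limma adjusted p = 3.5e-15) and -1.98 after scaling. Foxp3 went from -0.74 ± 0.07 on TPM (limma adjusted p = 3.6e-07) to 0.26 after scaling, so its direction depended on the scale. The scaled value lay below the scaled median of all genes tested, 0.93.

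Tnfrsf4 and Tnfrsf9, members of the tumor necrosis factor receptor family, were lower on both scales. Tnfrsf4, encoding OX40, was at 56.7, 55.5 and 54.1 TPM in blood and at 344, 316 and 325 TPM in liver. Tnfrsf9, encoding 4-1BB, was at 8.98 ± 1.18 TPM in blood and 62.1 ± 16.5 TPM in liver (SD, n = 3). After scaling both remained below liver, at -1.55 and -1.70. Il2ra, the interleukin 2 receptor alpha chain that marks Treg cells, was at 100.5 ± 1.41 TPM in blood and 84.3 ± 14.5 TPM in liver, and its difference of 0.27 did not pass the test on TPM (limma adjusted p = 0.051), but passed without liver replicate 2 or 3 (0.37 and 0.31) and after scaling (1.26). Entpd1, the ectonucleotidase CD39, was higher in blood at 73.7, 86.9 and 75.0 TPM, against 13.2, 17.8 and 16.7 TPM in liver, and neutrophil, monocyte and B cell marker sums were higher in the same libraries; their part was not tested.

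Genes of resting or circulating T cells had the highest median of the 18 lists, marker lists of other cell types aside. This rank is a description as well. Of 19 genes, 17 were liver-expressed, and 9 of these were higher and 4 lower in blood, with a median of 0.52 log2 units beside 0.07 over all genes. After T cell scaling 16 were higher and 1 lower (median 1.52, beside 0.93). Against the 4 other organs 8 were higher and 4 lower, with a median of only 0.12 beside -0.08 for all genes tested. Summed over the 19 genes, the mean was 3356.5 TPM in blood and higher in lung, at 3854.6 TPM. Igfbp4, a growth factor binding protein of naive T cells, was at 104, 112 and 118 TPM in blood and 29.9, 29.0 and 42.1 TPM in liver (difference 1.72 ± 0.13, limma adjusted p = 3.7e-08). Its lymph node mean of 194 TPM was above both.

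Ccr7, the receptor that guides T cells into lymph nodes, was at 255, 281 and 270 TPM in blood and 189, 167 and 203 TPM in liver. Its difference was 0.53 ± 0.07, and the lung mean of 575 TPM lay above both. Klf2, which controls the egress receptor S1pr1, was at 605, 604 and 671 TPM in blood and 595, 611 and 724 TPM in liver. The groups overlapped and the difference was -0.03 ± 0.07 (limma adjusted p = 0.76), whereas against the 4 other organs Klf2 was higher in blood by 0.98 (adjusted p = 7.1e-10 with limma). S1pr1 differed from liver by -0.35 on TPM and by 0.65 after scaling. Dusp10, a phosphatase of JNK and p38, went furthest against the list at 13.5 ± 1.32 TPM in blood and 121 ± 7.23 TPM in liver.

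**Figure D4:**
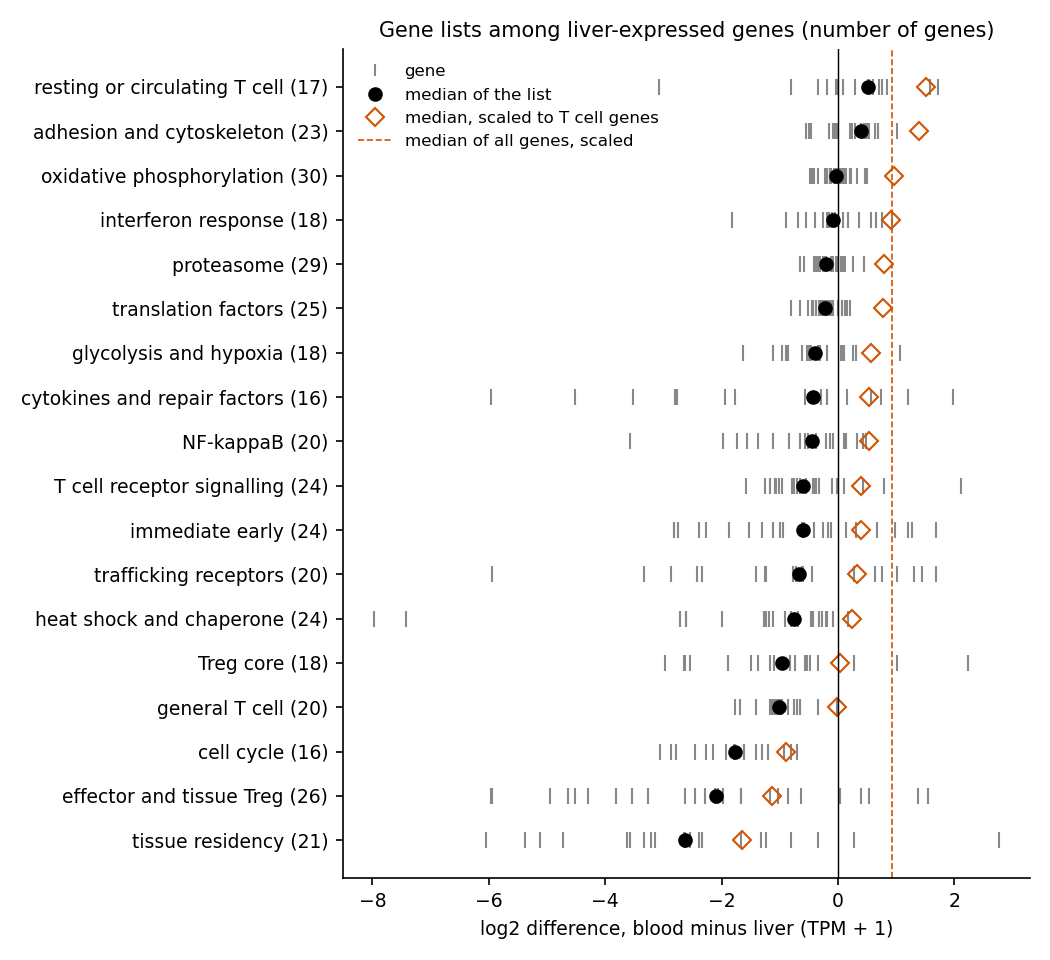
Differences in log2(TPM + 1), blood minus liver, of the liver-expressed genes of 18 lists (ticks), with the median of each list (black dots) and the median after scaling each library to its T cell genes (open diamonds). The dashed line is the scaled median of all genes, 0.93; the residency, effector and cell cycle lists stayed below 0 on both scales.

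Trafficking receptors split in both directions. Of 26 genes, 20 were liver-expressed, with 12 lower and 7 higher in blood (median -0.67), and 8 lower and 11 higher after T cell scaling (median 0.32). The shares over all genes tested were 16.1% lower and 23.3% higher, and 4.28% and 64.1% after scaling. Ccr4, a receptor for skin and inflammatory chemokines, was at 11.2, 10.4 and 10.3 TPM in blood and at 81.9, 83.6 and 87.1 TPM in liver. Cxcr3, a receptor for interferon-induced chemokines, was at 20.4, 25.5 and 22.9 TPM in blood and at 125, 115 and 120 TPM in liver. Gpr15, a receptor known from gut homing, was at 8.47 ± 1.03 TPM in blood and 49.6 ± 1.61 TPM in liver (SD, n = 3). All 3 kept their direction after T cell scaling, at -1.93, -1.37 and -1.49.

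Itgb2, encoding integrin beta 2, was on the other side, as were Itgal, Selplg and Ccr2. Itgb2 was at 545, 572 and 549 TPM in blood and at 293, 282 and 250 TPM in liver. Itgal, whose product pairs with it to form LFA-1, was at 320 ± 3.99 TPM in blood and 207 ± 18.9 TPM in liver, and Selplg, the P-selectin ligand, at 618 ± 25.7 and 364 ± 15.1 TPM. Ccr2, a chemokine receptor of monocytes and some T cells, was at 366, 337 and 362 TPM in blood and 116, 155 and 120 TPM in liver. It is also 1 of the 10 monocyte genes summed above. Neutrophil and monocyte sums were higher in the same blood libraries, and their part in the genes higher in blood was not tested. Itgb1 (280 against 669 TPM) and Cxcr4 (349 against 577 TPM) were lower in blood than in liver on TPM. After T cell scaling Cxcr4 was higher than in liver by 0.28, and against the 4 other organs it was higher on TPM by 0.86.

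In the adhesion and cytoskeleton list, 23 of 24 genes were liver-expressed, 16 of them higher and 4 lower in blood, with a median of 0.40 (1.40 after scaling). Arpc5 and Arpc1b, subunits of the actin-branching Arp2/3 complex, were at 397 ± 8.21 and 846 ± 43.1 TPM in blood and at 246 ± 9.99 and 527 ± 76.5 TPM in liver. Actb was higher in blood by 0.51, whereas Actg1, the other cytoplasmic actin, was lower on TPM (difference -0.47) and higher after T cell scaling (0.53). Myeloid cells and platelets are rich in the same proteins, and their marker sums were higher in blood; their part was not tested.

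Immediate early genes, which are transcribed within minutes of a stimulus, did not move together. Of 25 genes, 24 were liver-expressed, and 15 of these were lower and 5 higher in blood than in liver (median -0.60, and 0.40 after scaling, where 8 were lower and 13 higher). Against the 4 other organs 14 were higher and 8 lower (median 0.53, beside -0.08 for all genes tested).

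Nr4a1, an orphan nuclear receptor induced by T cell receptor signals, was at 609, 645 and 627 TPM in blood and at 3227, 3198 and 3444 TPM in liver. The difference was -2.39 ± 0.05 from liver and 0.70 ± 0.04 from the 4 other organs (limma adjusted p = 3.9e-15 and 4.6e-10), with 215 TPM in spleen, 237 in lymph node, 786 in lung and 557 in bone marrow. Jun was at 50.9, 49.7 and 50 TPM in blood and at 344, 356 and 385 TPM in liver. Junb was at 648, 671 and 714 TPM in blood and at 2266, 2494 and 2708 TPM in liver. These 3 genes were lower than liver on both scales.

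Fos, the partner of Jun in the AP-1 transcription factor, had the opposite order. It was at 836, 853 and 843 TPM in blood and at 429, 321 and 356 TPM in liver, a difference of 1.2 ± 0.08 (limma adjusted p = 5.6e-09). Klf4 (52.2, 51.3 and 53.9 against 23.1, 20.5 and 19.8 TPM) and Cebpb (227, 220.1 and 270 against 60.3, 68.2 and 96.3 TPM) were also higher in blood. Atf3, a stress-induced factor, was at 84.3 ± 2.40 TPM in blood and 53.1 ± 10.9 TPM in liver (adjusted p = 0.04 with limma, and 0.0667 to 0.142 without any single blood or liver library other than liver replicate 1). It was at 2.30 TPM in spleen and 0.657 TPM in lymph node, and its difference from the 4 other organs was 3.06. Klf4 and Cebpb are also known as myeloid factors, and the neutrophil and monocyte sums were higher in the same blood libraries. The part of other blood cells in these genes and in Fos was not tested.

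**Figure D5:**
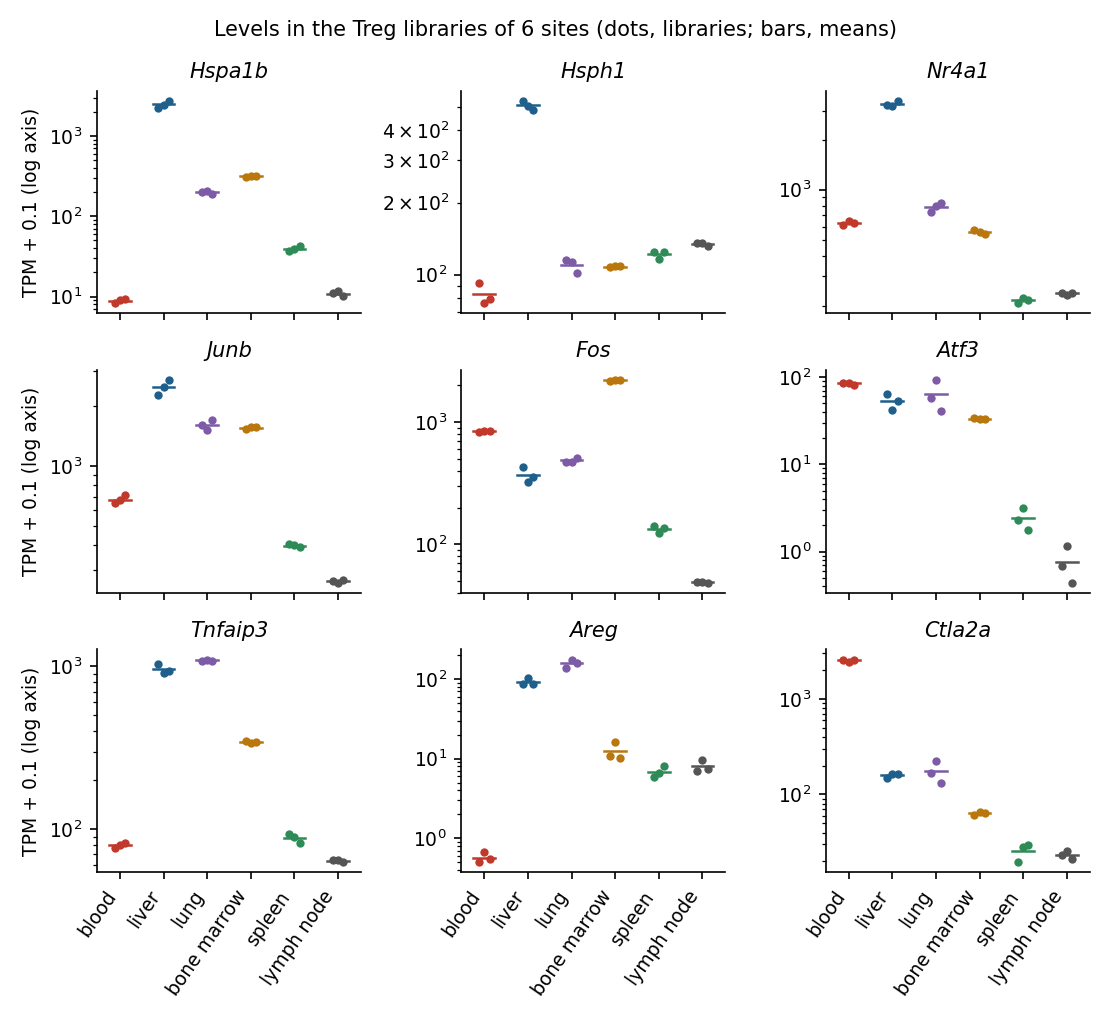
TPM plus 0.1 on log axes (each panel has its own range) for 9 genes in the 3 libraries of each of 6 sites, with bars for means. Hspa1b, Hsph1 and Nr4a1 were highest in liver, Tnfaip3 and Areg were high in both liver and lung, Atf3 was low in spleen and lymph node only, and Ctla2a was highest in blood.

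The cyclic AMP response element, TGACGTCA, which reads the same on both strands, was found in the promoters of 3 of 21 immediate early genes with a sequence (Btg2, Dusp1 and Maff) and in that of Areg. Of all 27025 genes with a promoter sequence, 1.77% held it in at least 1 promoter. The share was 3.32% of the liver-expressed genes, 3.80% of those lower and 2.53% of those higher in blood. Areg (chr5:91139349-91139598, plus strand) and Dusp1 (chr17:26508473-26508722, minus strand) are shown because the motif stood in both while their differences from liver did not match. The 250 bases before the start are from RefSeq, GRCm38.p6, with the motif in capitals.
Areg: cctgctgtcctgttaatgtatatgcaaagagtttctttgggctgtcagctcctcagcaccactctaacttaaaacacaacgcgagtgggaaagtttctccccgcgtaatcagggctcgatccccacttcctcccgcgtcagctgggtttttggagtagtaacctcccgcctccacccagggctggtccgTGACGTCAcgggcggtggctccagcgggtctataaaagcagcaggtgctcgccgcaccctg
Dusp1: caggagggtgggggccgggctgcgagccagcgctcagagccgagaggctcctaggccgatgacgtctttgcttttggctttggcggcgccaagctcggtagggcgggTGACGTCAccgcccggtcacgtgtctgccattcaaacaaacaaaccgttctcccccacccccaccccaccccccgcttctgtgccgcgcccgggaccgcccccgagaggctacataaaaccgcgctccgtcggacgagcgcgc
Areg differed from liver by -5.97 log2 units. Dusp1, a phosphatase of MAP kinases, was at 796, 808 and 833 TPM in blood and 963, 964 and 978 TPM in liver, a difference of -0.25 ± 0.04 that became 0.75 after T cell scaling, and was higher than in the 4 other organs by 1.33. The pair was picked for this contrast, and whether the motif went with the differences was not tested.

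Proliferation genes were lower in blood. Of 24 cell cycle genes, 16 were liver-expressed, and 15 of these were lower and none higher (median -1.77, and -0.89 after scaling, where 12 were lower and 1 higher). Mki67, the proliferation marker Ki-67, was at 6.41, 6.41 and 6.93 TPM in blood and at 33.7, 31.5 and 32.8 TPM in liver. Top2a, the topoisomerase of dividing cells, was at 6.52 ± 0.22 TPM in blood and 53.2 ± 19.7 TPM in liver (SD, n = 3). Of the 8 genes below the liver rule, 7 were lower in blood as well. In bone marrow the mean of Mki67 was 80.9 TPM.

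Cytokine genes were mixed. Of 26 genes, 16 were liver-expressed, with 8 lower and 5 higher in blood (median -0.43), and 7 lower and 8 higher after T cell scaling (median 0.53). Over all genes tested, 16.1% were lower and 23.3% higher, and 4.28% and 64.1% after scaling. Besides Areg and Il10, Tnf was at 11.2, 10.4 and 10.6 TPM in blood and at 74.8, 78.6 and 83.7 TPM in liver, and Ifng, encoding interferon gamma, at 3.85, 8.57 and 5.81 against 81.7, 81.9 and 68.0 TPM. The next highest mean of Ifng after liver was 25.2 TPM, in bone marrow. Tgfb1, encoding the suppressive cytokine TGF-beta 1, was higher in blood (195 ± 12.3 against 117 ± 14.1 TPM), as was Tnfsf14, encoding LIGHT (51.3 ± 3.18 against 12.9 ± 4.91 TPM). What other blood cells added to Tgfb1 and Tnfsf14 was not tested.

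In the T cell receptor signalling list 18 of 24 genes were lower and 3 higher on TPM (median -0.60). After T cell scaling 1 was lower and 15 higher (median 0.40, beside 0.93 for all genes tested), so the direction followed the scale. Of all genes tested, 16.1% were lower and 23.3% higher on TPM, and 4.28% and 64.1% after scaling. Zap70, a kinase that binds the activated receptor, differed by -1.17 on TPM, close to the median of the general T cell genes themselves (-1.01). Ptpn6, the phosphatase SHP-1, stood apart at 368, 379 and 375 TPM in blood and 86.0, 90.6 and 80.9 TPM in liver. What other blood cells added to Ptpn6 was not tested. In the NF-kappaB list 12 of 20 genes were lower and 2 higher on TPM, and 5 lower and 13 higher after scaling. Both Tnfaip3 and Nfkbia, the inhibitor IkappaB alpha (222 ± 3.91 against 881 ± 50.1 TPM), were lower on both scales.

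Interferon response genes had no common direction. Of 22 genes, 18 were liver-expressed, with 6 higher, 6 lower and a median of -0.08 (15 higher, 1 lower and 0.91 after T cell scaling). The shares of all genes tested were 23.3% higher and 16.1% lower, and 64.1% and 4.28% after scaling. Isg15, a ubiquitin-like modifier, was at 40.6, 35.0 and 49.1 TPM in blood and at 159, 137 and 147 TPM in liver, whereas Rsad2, encoding the antiviral enzyme viperin, was at 20.1, 20.5 and 21.5 TPM in blood and 12.1, 13.9 and 6.59 TPM in liver. Blood and liver did not overlap for either gene.

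Housekeeping lists differed among themselves on TPM. Of 30 oxidative phosphorylation genes 1 was higher and 4 lower (median -0.03), of 29 proteasome genes 1 was higher and 8 lower (median -0.20), and of 25 translation factors none was higher and 13 lower (median -0.22). These counts stand beside 18.8% higher and 25.1% lower of the liver-expressed genes, and 23.3% and 16.1% of all genes tested. After T cell scaling the medians of these lists were 0.97, 0.79 and 0.77, near that of all genes. Of 18 glycolysis and hypoxia genes, 11 were lower and 3 higher on TPM, and 1 was lower and 14 higher after scaling. On the scaled values 77.5% of the liver-expressed genes and 64.1% of all genes tested were higher. Hif1a, the hypoxia factor, was at 52.9, 53.4 and 56.0 TPM in blood and 145, 183 and 183 TPM in liver, and Slc2a3, the glucose transporter GLUT3, was higher in blood at 138 ± 1.89 against 65.1 ± 4.60 TPM. What other blood cells added to Slc2a3 was not tested.

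Ribosomal protein genes were a uniform group. Of 82 liver-expressed members 76 were lower and 2 higher in blood on TPM (median -0.44, with 16.1% of all genes tested lower). None was lower and 81 were higher after T cell scaling (median 0.56, with 64.1% of all genes tested higher). Together they made up 16.1% ± 0.22 of blood TPM and 21.9% ± 0.85 of liver TPM (SD, n = 3). Of the 13 mRNAs of the mitochondrial genome, 7 were higher and none lower on TPM (median 0.66, with 23.3% of all genes tested higher). After T cell scaling 12 were higher and none lower (median 1.66, with 64.1% of all genes tested higher). The 13 mRNAs made up 7.21% ± 0.01 of TPM in blood and 6.44% ± 1.01 in liver, a difference within the spread of the liver libraries. Among the 7, mt-Nd3 was listed at 0 in 2 liver libraries and at 1313 TPM in the other, so its difference has no clear size. The 2 mitochondrial ribosomal RNAs made up 2.23% ± 0.07 of blood TPM and 0.231% ± 0.025 of liver TPM.

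Among the genes furthest above liver were genes known from other blood cells. Lyz2, the lysozyme of myeloid cells, was at 7388, 7591 and 7428 TPM in blood and at 21.4, 23.4 and 46.7 TPM in liver (difference 7.98 ± 0.21, limma adjusted p = 1.3e-13). S100a9, a subunit of the neutrophil protein calprotectin, was at 9247, 8697 and 9201 TPM in blood and at 53.0, 56.6 and 136 TPM in liver. Tyrobp, the adaptor DAP12 of myeloid and natural killer cells, was at 1474 ± 42.5 TPM in blood and 16.2 ± 1.95 TPM in liver (SD, n = 3). For S100a8 and S100a9 liver replicate 3 stood well above the other liver libraries, and every blood library was far above it.

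Other genes above liver belong to no marker list used here. Ctla2a, encoding a cathepsin inhibitor, was at 2550, 2453 and 2567 TPM in blood and at 149, 164 and 166 TPM in liver. Its mean was 25.6 TPM in spleen, 23.2 in lymph node, 175 in lung and 63.3 in bone marrow. Tsc22d1, a transcription regulator, was at 754, 738 and 759 TPM in blood and 11.9, 14.0 and 27.8 TPM in liver, and at 17.4 to 61.2 TPM in the other organs. Cd9, a tetraspanin, was at 629, 691 and 674 TPM in blood and 33.9, 42.2 and 45.6 TPM in liver.

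Marker sums of platelet, monocyte, B cell, dendritic, macrophage and cytotoxic genes were also highest in blood, and that of neutrophil genes in bone marrow (43354 TPM). The platelet sum was 2209 to 2244 TPM in blood, and its mean elsewhere was at most 78.7 TPM, in bone marrow. The part of any of these cells in Ctla2a, Tsc22d1 and Cd9 was not tested. Prg4, which encodes lubricin, was at 171, 161 and 186 TPM in blood and 19.7, 10.1 and 10.4 TPM in liver. Iglc3, an immunoglobulin light chain gene with close copies, was at 0 in 1 liver library and at 23.7 and 16.5 TPM in the others, and its adjusted p of 0.0032 (limma) became 0.055 when only blood and liver libraries were modelled.

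Genes lay close to the rule on both sides of it. Just inside were Nfic (liver mean 10.007 TPM, blood 22.0 TPM), Polh (10.01 and 6.42 TPM) and Agk (10.01 and 11 TPM). Just outside were R3hcc1 (9.997 and 9.11 TPM), Timm8a1 (9.987 and 16.6 TPM) and Icosl (9.973 and 32.8 TPM). Outside the rule were also 1147 genes with a blood mean of at least 10 TPM. Among genes of the lists that missed the rule but were tested, 1 of 3 residency genes, 3 of 4 interferon response genes and 3 of 4 glycolysis genes were higher in blood and none lower. Of 5 trafficking genes 3 were higher and 1 lower, of 9 cytokine genes 3 were higher and 3 lower, and of 4 effector genes 1 was lower and none higher. Over all genes tested 23.3% were higher and 16.1% lower. Genes that missed the rule are low in liver by definition, so nothing is read from these counts. Of the genes inside it, 7478 also reached 10 TPM in blood, 60 had a blood mean under 1 TPM and 30 were at 0 in all 3 blood libraries. In the liver libraries 7054 genes reached 10 TPM in each, whereas 122 were at 0 in at least 1. For 27 of them a different liver library held 100 TPM or more.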

How the data were processed

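Poly(A) RNA was made into libraries with a directional kit, per the labels' protocols. The authors deposited 1 table of TPM values per library for 55487 gene IDs, and the submitters' processing notes name STAR, RSEM and the build mm10. The annotation and the strand setting are not given in the sources used here, so overlapping and antisense genes and close copies may share reads. Symbols matched 55141 IDs. limma 3.58.1 (R 4.3.3) was fitted to log2(TPM + 1) of all 18 libraries with 1 mean per group (eBayes, trend and robust), and p-values were adjusted by Benjamini-Hochberg over the 16694 genes that reached 1 TPM on average in any group. Fold changes on this scale understate the change of low genes. The fit was tested on simulated data. Named genes were the 12 per direction with the largest change among called genes without overlap and with a lymph node mean of at least 10 TPM, the 5 per direction without that condition, up to 4 per list, and any gene of the 18 lists and 14 marker lists. The genes and lists were chosen with earlier results of these data known. Same-numbered blood and liver libraries had deviations correlated at 0.001, 0.002 and 0.01, so no pairing by replicate number was detected. Such low values cannot show whether these libraries came from the same animals or sort. No 2 tables were identical. Depth was estimated from the smallest steps between TPM values of 12062 single-transcript genes. Alternatives changed the pseudocount, filter, scaling, gene rule, weights, block and libraries. A few genes of the lists are not reported here by name.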

Additional observations from a re-analysis of the deposited data

How the results depend on the processing

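Scaling to T cell genes was the only alternative that moved a count of calls by more than 1.5 times: it gave 6399 genes higher and 388 lower than in liver, and 6722 higher and 198 lower than in the 4 other organs, in place of 1553, 2074, 1412 and 2464. It also turned the median differences (blood minus liver) of these lists to positive values: Treg core 0.04, trafficking receptors 0.32, interferon response 0.91, immediate early 0.40, heat shock and chaperone 0.25, T cell receptor signalling 0.40, NF-kappaB 0.53, glycolysis and hypoxia 0.56, proteasome 0.79, oxidative phosphorylation 0.97, cytokines and repair factors 0.53 and translation factors 0.77. Median ratio scaling turned the oxidative phosphorylation median to 0.01. Of 151 named genes, 19 turned with T cell scaling: Actg1 0.53, Btg2 0.41, Cxcr4 0.28, Dusp1 0.75, Foxp3 0.26, Klf2 0.97, Lck 0.25, S1pr1 0.65, Cox7c 0.55, Eef1d 0.49, Eif4e 0.19, Ifit1 0.09, Ncl 0.34, Ndufs3 0.51, Nop56 0.55, Pfkl 0.02, Psmb6 0.58, Psmb9 0.35 and Psmd14 0.41. These turns follow from the construction of the scale, which raises blood relative to liver.

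Leaving out each blood or liver library in turn gave 1286 to 1607 genes higher and 1803 to 2129 lower than in liver. Leaving out each library of blood or of the 4 other organs gave 1161 to 1479 higher and 1917 to 2570 lower than in those organs. Of the named genes, 6 lost their call without a blood or liver library (Atf3, Eif4e, Mx1, Nop56, Pax5 and Psmb5). Direction and call were kept by 115 under every alternative in which they were tested (removing abundant classes and marker genes took some out of the test). No pairing by replicate number was detected, and the fit with the replicate number as a block gave 1512 higher and 2030 lower than in liver. Against the other organs the block gave 1407 higher and 2410 lower. Depth limits the precision more in liver (26.1 reads per kb at 10 TPM) than in blood (121.8).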
